A study of Mus musculus with 12 samples.

Results

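Transcripts of genes that join broken DNA ends, and of the factors that steer this joining, were followed in whole mouse embryos with and without intact telomere protection. The members were named by function: Xrcc5, Xrcc6, Prkdc, Lig4, Xrcc4, Dclre1c, Trp53bp1, Rif1, Parp1 and Polq. Of these 10 genes, 9 had at least 1 probe set with a single gene symbol in the platform annotation, out of 18193 such genes in the series, and Dclre1c, the Artemis nuclease, is not analysed here. The 9 genes held 22 probe sets, and each gene was represented by its brightest probe set, judged by the mean of the 12 values. All 9 were among the 13500 genes tested.

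Embryos of 4 genotypes were compared at E10.5, the embryonic day of their isolation, with 3 arrays each that the labels call biological replicates. Double mutants (double) were homozygous for the acd allele of Acd and also p53-/-. The acd embryos were homozygous for acd with no p53 change labelled, the p53 embryos were p53-/- with no acd allele labelled, and wt embryos carried neither change. The acd allele is known as a spontaneous hypomorphic allele, so some product may remain. The labels describe neither allele further, and the sources used here do not give strain or litter. Values are RMA log2 values, in which a difference of 1 is a doubling. In whole embryos, fewer cells of a type and less RNA per cell cannot be told apart.

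Telomeres resemble broken DNA ends and are hidden from repair by shelterin, of which the Acd product TPP1 is a subunit that carries POT1 to the telomere. Where shelterin is lost, classical end joining can fuse chromosomes: the Ku70 and Ku80 ring binds the end and DNA-PKcs, Artemis and the XRCC4 and DNA ligase IV complex process and seal it. 53BP1 with its effector RIF1 shields the end from resection and so favours this route. Without Ku, PARP1 and DNA polymerase theta drive an alternative joining of short homologies. The comparisons ask whether transcripts of this machinery differ when protection is weakened, and whether that depends on p53.

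The Acd transcript averaged 8.36 ± 0.11 in double mutants, 8.26 ± 0.046 in acd, 8.91 ± 0.12 in p53 and 8.99 ± 0.0052 in wt embryos (SD, n = 3 each). Both genotypes labelled with acd thus lay below both without it. The p53 transcript was not analysed here. Double mutant replicates 1 and 2 stood apart: their median correlations with the other arrays over the genes tested were 0.972 and 0.987, against 0.995 to 0.997 for the other 10 arrays. Y-linked transcripts were present in 1 of 3 double mutant, 3 of 3 acd, 3 of 3 p53 and 1 of 3 wt embryos, and the 1 double mutant was replicate 1. The 3′ minus 5′ difference of the actin control probe sets was 0.48 in double mutant replicate 1 and 0.37 to 0.51 in the other 11 arrays. That of the Gapdh controls was 0.0051, against 0.043 to 0.20. Of the tissue markers, 12 of 12 neuron, 11 of 11 erythroid and 8 of 10 endoderm and liver markers tested had a wt mean above the array medians. These medians lay between 5.32 and 5.4. Of the macrophage markers tested 9 of 13 did so, and of the interferon response genes 4 of 7.

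The genes of the end-joining machinery, on the probe sets used, differed little in level among acd, p53 and wt embryos. None of the 9 passed limma's test in any comparison, and in the 9 acd, p53 and wt arrays the members' median relative to the wt mean stayed between -0.033 and 0.036. They were lower in 1 embryo, double mutant replicate 1, in which 8 of 9 members had their lowest value of the 12 arrays, with a median of -0.44 relative to the wt mean. Of all genes tested, 30.4% had their lowest value in that array. On the probe sets used, only Xrcc6 and Lig4 lay below the other 10 arrays in both double mutant replicates 1 and 2, as did 12.5% of all genes tested. Among probe sets not used, Parp1 1422503_s_at and 1422502_at and Rif1 1429490_at did so too. The margin was small on 1422502_at (10.02 against 10.03) and on 1429490_at (8.80 against 8.81).

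**Figure D1:**
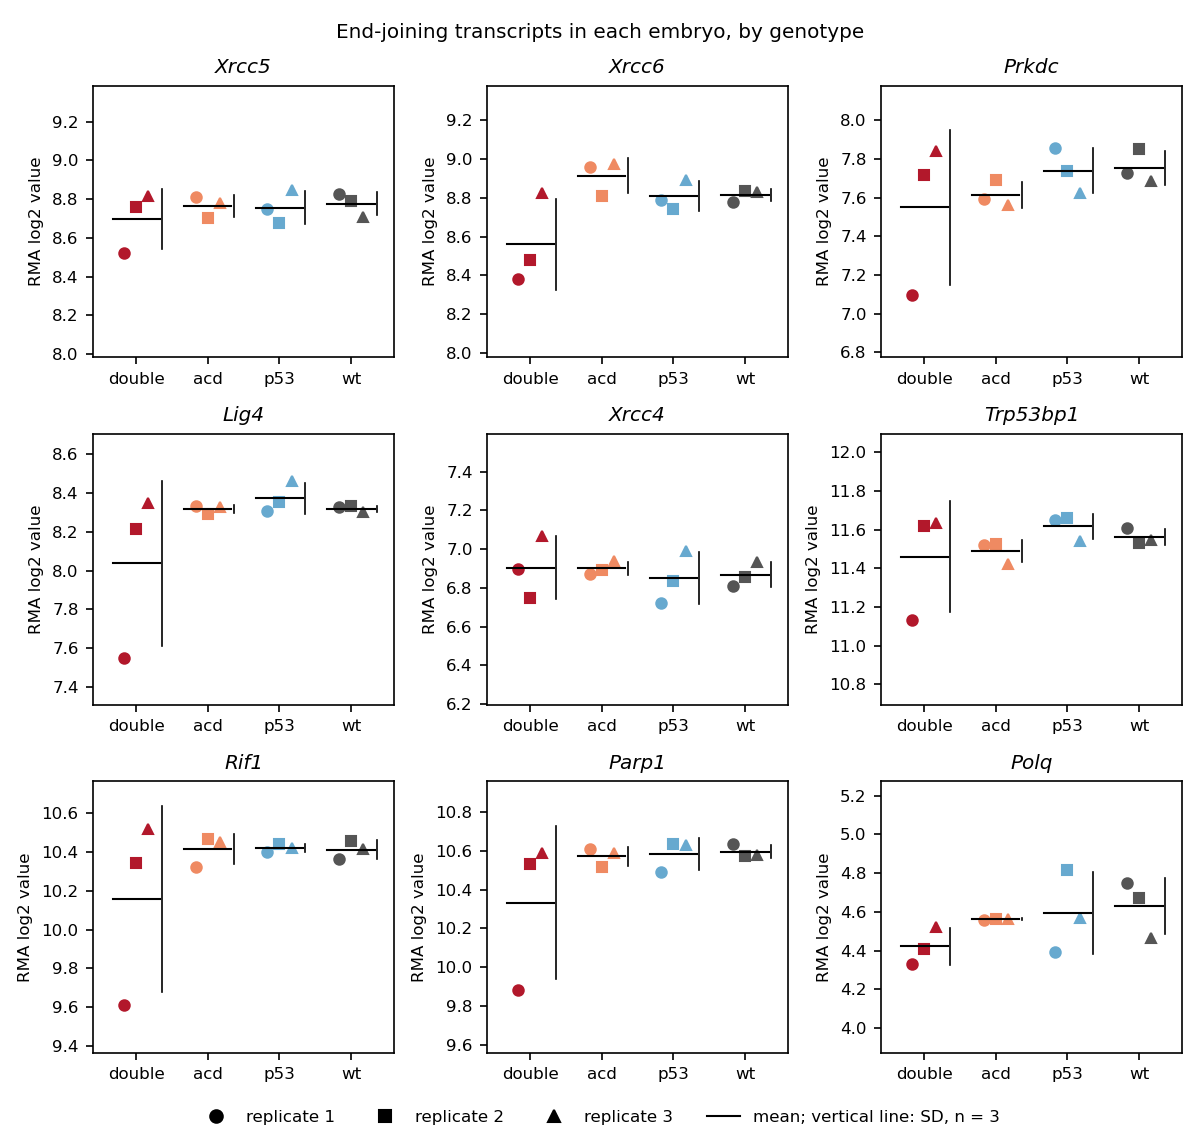
RMA log2 value (vertical axis) of the 9 genes in each embryo, grouped by genotype along the horizontal axis; symbols mark the replicate, horizontal lines the mean and vertical lines the SD (n = 3). Each panel spans the same log2 range. In 8 of the 9 panels double mutant replicate 1 is the lowest of the 12 points, while the acd, p53 and wt points lie together.

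Xrcc6 encodes Ku70, which with Ku80 forms the ring that first binds a DNA end. It measured 8.38, 8.48 and 8.82 in the double mutant arrays, 8.96, 8.81 and 8.98 in acd, 8.79, 8.74 and 8.89 in p53, and 8.78, 8.84 and 8.83 in wt. Double mutant replicates 1 and 2 were below every other array, and replicate 3 lay among the wt values. A second Xrcc6 probe set read 3.71 to 4.14, below the median of every array, and is not shown to be above background. Xrcc5 encodes Ku80, the partner of Ku70. It measured 8.52, 8.76 and 8.82 in the double mutant arrays and 8.67 to 8.85 in the 9 others. Replicate 1 was again the lowest, but here replicate 2 lay within the other arrays.

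Prkdc encodes DNA-PKcs, the kinase that Ku recruits to the end. It measured 7.09, 7.72 and 7.84 in double mutants, 7.59, 7.69 and 7.56 in acd, 7.86, 7.74 and 7.62 in p53, and 7.73, 7.85 and 7.68 in wt. Replicate 1 was the lowest array, 2 of 3 acd arrays lay below every wt array, and the other values overlapped. Lig4 encodes the ligase that seals the ends. It measured 7.55, 8.21 and 8.35 in double mutants, 8.33, 8.29 and 8.33 in acd, 8.31, 8.35 and 8.46 in p53, and 8.33, 8.33 and 8.30 in wt. Replicate 1 lay 0.66 below the lowest of the other 11 arrays, whose whole range was 0.25.

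Xrcc4 encodes the scaffold that stabilises DNA ligase IV, and it was the member that was not lowest in double mutant replicate 1. It measured 6.90, 6.75 and 7.07 in double mutants, 6.87, 6.89 and 6.94 in acd, 6.72, 6.84 and 6.99 in p53, and 6.81, 6.86 and 6.94 in wt. All 4 genotypes overlapped. Its second probe set ran from 6.39 to 6.98 and in double mutant replicate 1 lay 0.090 below the wt mean, within the spread of the other arrays. The partners Xrcc4 and Lig4 thus differed in this embryo, at 0.030 and -0.77 relative to the wt mean.

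Trp53bp1 encodes 53BP1, which binds chromatin beside broken ends and blocks their resection. It measured 11.13, 11.62 and 11.63 in double mutants, 11.52, 11.53 and 11.42 in acd, 11.65, 11.66 and 11.54 in p53, and 11.61, 11.53 and 11.54 in wt. The acd arrays lay just below the wt arrays without overlap, although the highest acd value and the lowest wt value differed by less than the spread within either genotype. Of its 5 other probe sets, 1435609_at also separated them, at 7.16, 7.25 and 7.31 in acd against 7.57, 7.48 and 7.51 in wt. Fitted on its own, an alternative added after the values were seen, this probe set differed by -0.28 ± 0.14 SE between acd and wt (limma, adjusted p = 1.0 over all probe sets). This SE shares 1 estimate of the spread with the double mutants. The SD on 1435609_at was 0.36 in double mutants, against 0.074 in acd and 0.046 in wt (n = 3 each). The acd and wt arrays did not overlap for 17.1% of all genes tested. On 1426957_at the acd and wt arrays overlapped, with means of 9.80 and 9.83. The 3 remaining probe sets had values below the array median on 2 to 9 arrays.

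Rif1 encodes the effector that 53BP1 recruits to hold off resection, and which also times DNA replication. It measured 9.61, 10.34 and 10.52 in double mutants, 10.33, 10.47 and 10.45 in acd, 10.40, 10.44 and 10.42 in p53, and 10.36, 10.46 and 10.42 in wt. Its SD was 0.48 in double mutants but 0.079, 0.021 and 0.047 in acd, p53 and wt (n = 3 each). The other 3 Rif1 probe sets placed double mutant replicate 1 lowest too, at -0.93, -1.06 and -0.61 relative to their wt means, against -0.80 for the one used. On 1442939_at the acd arrays, at 8.26, 8.33 and 8.24, lay above the wt arrays, at 7.98, 7.97 and 8.19. The other 3 showed no such separation, so the acd level of Rif1 depends on the probe set read. That probe set alone differed by 0.23 ± 0.21 SE (limma, adjusted p = 1.0). This SE too carries the spread of the double mutants, whose SD there was 0.55, against 0.049 in acd and 0.13 in wt. The acd and wt arrays did not overlap for 17.1% of all genes tested.

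Parp1 encodes the enzyme that marks breaks with poly(ADP-ribose) and opens the alternative route. It measured 9.88, 10.53 and 10.59 in double mutants, 10.61, 10.52 and 10.59 in acd, 10.49, 10.63 and 10.63 in p53, and 10.64, 10.57 and 10.58 in wt. Double mutant replicate 1 lay 0.61 below the lowest of the other 11 arrays, which spanned 0.15. On the probe sets 1422503_s_at and 1422502_at replicate 1 was also lowest, at -0.66 and -0.63 relative to wt. Replicate 2 was low there as well, at -0.23 and -0.35, and on both probe sets the 3 double mutant arrays lay below the 3 acd arrays. Double mutant and acd arrays did not overlap for 11.3% of all genes tested. Fitted on their own these 2 probe sets differed by -0.35 ± 0.13 and -0.33 ± 0.13 SE between double mutants and acd (limma, adjusted p = 0.419 and 0.422 over all probe sets). On 1422502_at the double mutant arrays lay below the wt arrays too (-0.36 ± 0.13 SE, limma, adjusted p = 0.479). Double mutant and wt arrays did not overlap for 13.2% of all genes tested. The remaining probe set, 1443573_at, read 5.73 to 6.38 and placed replicate 1 at -0.035. Polq encodes DNA polymerase theta, which anneals short homologies in alternative joining. It measured 4.33 to 4.82 over the 12 arrays, below the median of each. As with the second Xrcc6 probe set, this does not show it above background. Polq entered the tests with 3 arrays over the 40th percentile, the fewest allowed. These were p53 replicate 2 and wt replicates 1 and 2, and no acd or double mutant array was among them. Polq is 1 of the 8 members lowest in double mutant replicate 1 and is counted in the medians of the 9 members, so each double mutant comparison also gives the median of the 8 others, an alternative added after the values were seen.

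**Figure D2:**
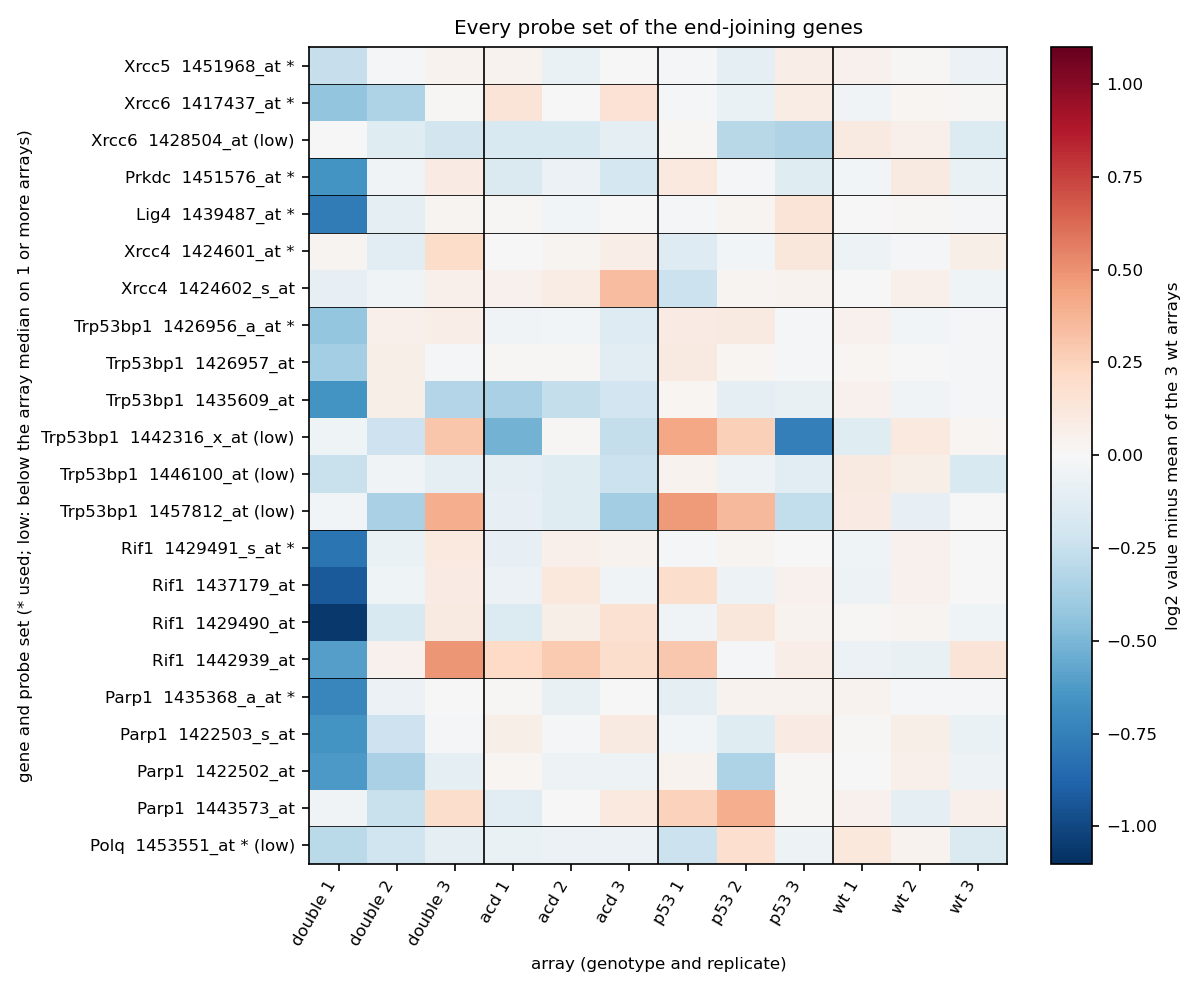
Each row is 1 of the 22 probe sets and each column 1 array; colour is the log2 value minus the mean of the 3 wt arrays, blue below and red above. Of the 17 probe sets that lay above the array median on every array, 16 were below the wt mean in double mutant replicate 1 and 14 had their lowest value there, while 5 were below it in replicate 3. Several of these probe sets belong to the same gene. Of all genes tested, 48.3% were below the wt mean and 30.4% lowest in replicate 1, and 57.1% were below the wt mean in replicate 3.

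Upstream sequence is shown for the ligase and PARP1 genes, which had the lowest values relative to wt in double mutant replicate 1 among members with a promoter entry, for Xrcc6, which was low in 2 embryos, and for Xrcc4, which was not low there. The sequences are the 250 bases before the start that the RefSeq promoter table (GRCm38.p6) gives for the gene, in the direction of the gene: Lig4 at chr8:9977681-9977930 (minus strand), Parp1 at chr1:180568641-180568890 (plus), Xrcc6 at chr15:82016119-82016368 (plus) and Xrcc4 at chr13:90089609-90089858 (minus). RefSeq places these genes on chromosomes 8, 1, 15 and 13, and the start used for Xrcc6 lies inside its annotated span (81987833 to 82040085). The upstream sequences of Prkdc and Rif1 were not used here. Capitals mark the GC box GGGCGG, the CCAAT box CCAAT and the E2F letters TTCCCGC and TTTGGCG, each on either strand; these motifs were chosen after the values were seen, and no matches overlapped in these windows.
Lig4: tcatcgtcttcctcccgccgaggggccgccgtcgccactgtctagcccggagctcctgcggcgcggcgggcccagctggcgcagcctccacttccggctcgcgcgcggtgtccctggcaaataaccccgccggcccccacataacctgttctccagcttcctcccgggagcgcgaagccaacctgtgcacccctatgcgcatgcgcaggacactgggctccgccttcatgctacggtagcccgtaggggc
Parp1: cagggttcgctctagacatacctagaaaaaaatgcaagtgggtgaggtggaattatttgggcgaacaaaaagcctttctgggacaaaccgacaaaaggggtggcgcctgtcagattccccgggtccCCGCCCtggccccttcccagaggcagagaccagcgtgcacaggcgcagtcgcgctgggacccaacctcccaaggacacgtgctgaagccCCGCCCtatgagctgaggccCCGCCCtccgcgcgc
Xrcc6: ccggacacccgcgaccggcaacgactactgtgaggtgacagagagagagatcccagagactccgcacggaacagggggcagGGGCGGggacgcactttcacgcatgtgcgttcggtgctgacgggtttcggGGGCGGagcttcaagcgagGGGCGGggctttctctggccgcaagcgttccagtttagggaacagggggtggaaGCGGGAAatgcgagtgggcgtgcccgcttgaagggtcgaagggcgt
Xrcc4: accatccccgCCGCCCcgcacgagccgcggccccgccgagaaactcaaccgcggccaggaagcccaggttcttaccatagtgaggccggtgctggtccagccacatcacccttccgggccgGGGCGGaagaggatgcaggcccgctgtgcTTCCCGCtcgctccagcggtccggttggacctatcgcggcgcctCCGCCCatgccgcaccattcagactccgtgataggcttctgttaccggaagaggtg
The Lig4 window held none of these letters and the Parp1 window 3 GC boxes. The Xrcc6 and Xrcc4 windows each held 3 GC boxes and 1 match to TTCCCGC. Over 32851 RefSeq windows of the same length, 32.7% held a GC box, 33.9% a CCAAT box, 3.82% TTCCCGC and 1.26% TTTGGCG. The 2 genes with the same matches, Xrcc6 and Xrcc4, were not alike in double mutant replicate 1, at -0.44 and 0.030 relative to the wt mean. A match describes the letters alone.

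The comparison of acd with wt embryos asks what homozygous acd alone does. The end-joining genes differed little: their log2 differences ran from -0.14 for Prkdc to 0.10 for Xrcc6, with a median of -0.012, against -0.0063 over all genes tested. Of the 9, 3 were higher and 6 lower, a split that became 5 and 4 after quantile normalization. With limma 0 of 9 were called at an adjusted p of 0.05 and 0 had an unadjusted p under 0.05, where 0.0148% and 1.77% of all genes did. Rif1 differed by 0.0024 ± 0.18, Lig4 by -0.0025 ± 0.16 and Parp1 by -0.025 ± 0.15 (SE). The groups did not overlap for 1 of 9 members, Trp53bp1, and for 17.1% of all genes.

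These standard errors carry the spread of the double mutants, since the fit shares 1 estimate of the spread. Without double mutant replicate 1 the estimates for acd against wt were the same and the median half-width of the 95% intervals was 0.14 in place of 0.26. On the probe sets used, Polq's among them, the intervals of all 9 members then lay between -0.31 and 0.29. That is between 0.809 and 1.23 of the wt level. These limits do not cover the probe sets not used, such as Trp53bp1 1435609_at at -0.28 and Rif1 1442939_at at 0.23 with all arrays. Lig4 lay between -0.13 and 0.12, Parp1 between -0.15 and 0.10, and Rif1 between -0.14 and 0.14. A fit with a sex term gave a median of 0.10, with 0 members called. The sex term is estimated within wt and double mutants alone, and double mutant replicate 1 is the male one there.

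The comparison of p53 with wt embryos asks what loss of p53 alone does. Of the 6 comparisons it gave the smallest median size of difference for the members, and the values ran from -0.036 for Polq to 0.056 for Trp53bp1, with a median of -0.011, against -0.0035 over all genes. Lig4 differed by 0.054 ± 0.16, Rif1 by 0.0068 ± 0.18 and Xrcc6 by -0.0057 ± 0.11 (SE). With limma 0 of 9 members were called and 0 had an unadjusted p under 0.05, against 0% and 0.719% of all genes. The groups overlapped for all 9 members and did not overlap for 6.77% of all genes. Without double mutant replicate 1 the 95% intervals on the probe sets used lay between -0.27 and 0.20. The sex term gave a median of 0.19, and 0 members were called.

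**Figure D3:**
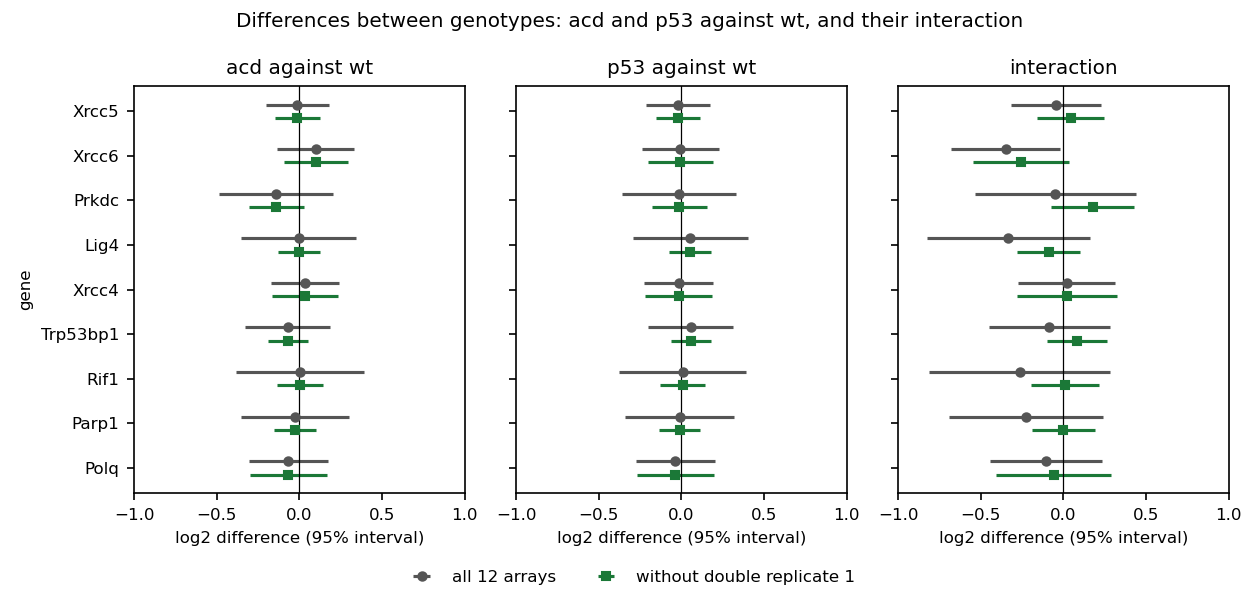
Log2 difference (horizontal axis) with its 95% interval for each gene in acd against wt, p53 against wt and the interaction, fitted to all 12 arrays (circles) and without double mutant replicate 1 (squares). In the first 2 panels the points are at -0.14 to 0.10 and the intervals narrow without that array. In the third, 8 of 9 circles lie below 0, as did 51.0% of all genes tested.

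Double mutants against p53 embryos ask what homozygous acd does where p53 is missing. Of 9 members 8 were lower, with a median of -0.19, against -0.0089 over all genes tested, of which 52.0% were lower. Without Polq the median was -0.22, with 7 of 8 lower. Lig4 differed by -0.34 ± 0.16, Rif1 by -0.26 ± 0.18, Parp1 by -0.25 ± 0.15 and Xrcc6 by -0.25 ± 0.11 (SE). With limma 0 were called, the lowest adjusted p being 0.463, for Xrcc6, and 1 had an unadjusted p under 0.05, against 0.00741% called and 10.7% of all genes. The groups overlapped for all 9, and did not for 8.29% of all genes. Without double mutant replicate 1 the median was 0.0088, with 4 members lower and 5 higher: Rif1 measured 0.012, Lig4 -0.092, Parp1 -0.025 and Xrcc6 -0.16. The sex term gave a median of -0.36.

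Double mutants against acd embryos ask what loss of p53 does where acd is homozygous. Again 8 of 9 members were lower, with a median of -0.14, against -0.011 over all genes, of which 52.8% were lower. The median value was that of Polq itself, and without Polq it was -0.15, with 7 of 8 lower. Xrcc6 had the largest difference, -0.35 ± 0.11 (SE), followed by Lig4 at -0.28 ± 0.16 and Rif1 at -0.26 ± 0.18. With limma 0 were called, with an adjusted p of 0.371 for Xrcc6, and 1 had an unadjusted p under 0.05, against 0% called and 12.6% of all genes. The groups did not overlap for 1 member, Polq, whose level is not shown to be above background, and for 11.3% of all genes. Without double mutant replicate 1 the median was 0.0066, Xrcc6 measured -0.26 ± 0.098 and Trp53bp1 0.14 ± 0.061 (SE; adjusted p = 0.364 and 0.384). The sex term gave a median of -0.30.

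Double mutants against wt embryos give the combined difference. The median was -0.21 with 8 of 9 lower, against -0.014 over all genes, of which 53.2% were lower. This median too was the value of Polq, and the 8 others had a median of -0.23, with 7 lower. Lig4 measured -0.28 ± 0.16, Parp1 -0.26 ± 0.15, Rif1 -0.26 ± 0.18 and Xrcc6 -0.25 ± 0.11 (SE). With limma 0 were called, the lowest adjusted p being 0.448, and 1 had an unadjusted p under 0.05, against 0.0148% called and 11.1% of all genes. On the probe sets used the groups overlapped for all 9, and they did not for 13.2% of all genes. Without double mutant replicate 1 the median was 0.012 and the 95% intervals on the probe sets used lay between -0.42 and 0.27. That is between 0.746 and 1.20 of the wt level. The 3 double mutant comparisons share the double mutant arrays and so share the low values of replicate 1.

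**Figure D4:**
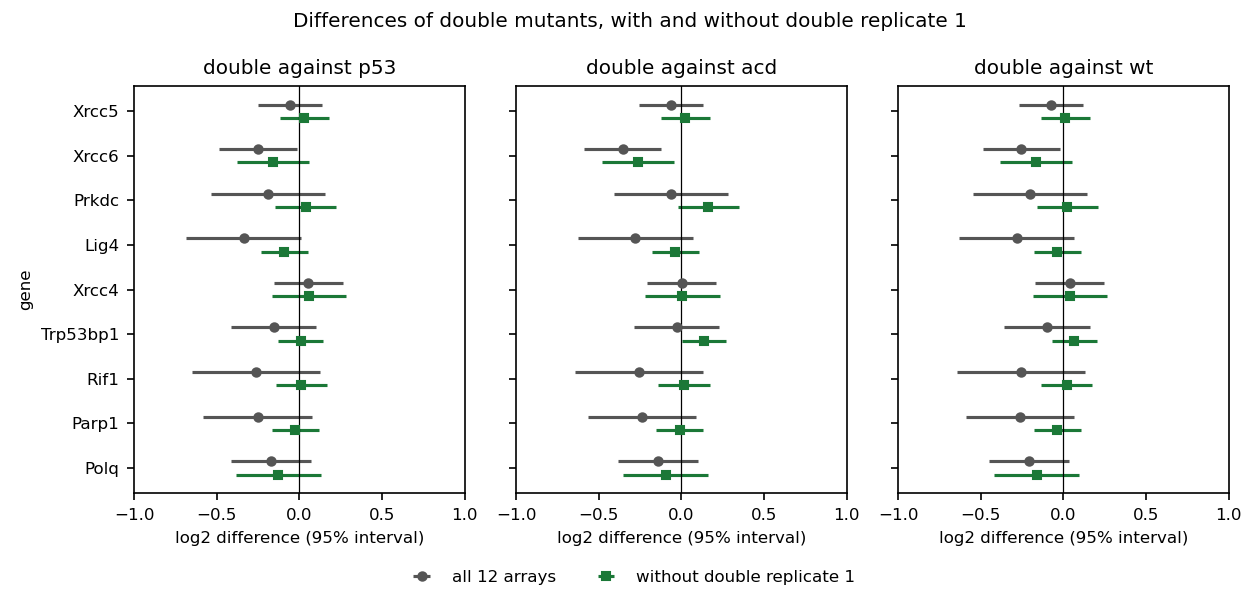
Log2 difference (horizontal axis) with its 95% interval for each gene in double mutants against p53, acd and wt, fitted to all 12 arrays (circles) and without double mutant replicate 1 (squares). On the probe sets used, Lig4, Rif1 and Parp1 lie at -0.34 to -0.24 with all arrays and at -0.092 to 0.019 without that array. Without it Xrcc6 stays between -0.26 and -0.16.

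The Xrcc6 value depended on which double mutant arrays were used. Without replicate 1 its 95% interval was -0.38 to 0.059 against p53, -0.48 to -0.046 against acd and -0.38 to 0.054 against wt (limma, adjusted p = 0.641, 0.364 and 0.563). Leaving out double mutant replicate 3, in which Xrcc6 was at the wt level, gave -0.38 against p53, -0.49 against acd and -0.39 against wt (limma, adjusted p = 0.0162, 0.0046 and 0.0154), each a call, with 1756, 1876 and 1646 of the 13500 genes called, or 13%, 13.9% and 12.2%. Without replicates 1 and 2, which leaves 1 double mutant embryo, it measured 0.015, -0.091 and 0.0090. With array weights it was called against acd (-0.38, adjusted p = 0.0191) and wt (-0.30, adjusted p = 0.0324), as were 13.2% and 13.4% of all genes. These weights were 0.068, 1.61 and 0.25 for double mutant replicates 1, 2 and 3, so the double mutant mean rested mostly on replicate 2. The Xrcc6 value was thus low in 2 of 3 double mutant embryos.

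The interaction takes the acd against wt difference away from that of double mutants against p53, and tests whether the acd effect differs without p53. Its median was -0.11, with 8 of 9 members below 0, against -0.0055 over all genes, of which 51.0% were below 0. The members' median was the value of Polq, and without Polq it was -0.16, with 7 of 8 below 0. Xrcc6 measured -0.35 ± 0.15, Lig4 -0.33 ± 0.22 and Rif1 -0.26 ± 0.25 (SE). With limma 0 of 9 were called, the lowest adjusted p being 0.879, and 1 had an unadjusted p under 0.05, against 0% called and 3.93% of all genes. Without double mutant replicate 1 the median was 0.0094, Xrcc6 measured -0.26 and Rif1 0.0094. Without replicate 3 Xrcc6 was called (limma, -0.48, adjusted p = 0.0423), as were 439 genes in all, or 3.25%, against 0 with all arrays. The sex term gave a median of -0.53.

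The low values of double mutant replicate 1 were large against the spread of the other embryos. For 5 of 9 members (Prkdc, Lig4, Trp53bp1, Rif1 and Parp1) replicate 1 lay below the lowest of the other 11 arrays by more than those 11 arrays ranged, and this held for 12.7% of all genes tested. Relative to the wt mean the members lay at -0.80 to 0.030 in replicate 1, at -0.34 to 0.057 in replicate 2 and at -0.11 to 0.20 in replicate 3. Over all genes the median was near 0 in each of these arrays, at 0.017, -0.017 and -0.018 in replicates 1, 2 and 3, while the SD about the wt mean was 0.48, 0.32 and 0.16.

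Other gene lists also stood apart in double mutant replicate 1, replicate 2 or both, and their part in the values above was not tested. The mean of 16 S phase genes in the double mutant arrays, in replicate order, was -0.32, -0.11 and 0.062 relative to wt, while the acd, p53 and wt arrays spanned -0.015 to 0.11. For 15 of 16 G2 and mitosis genes it lay at -0.41, -0.079 and 0.064, against -0.061 to 0.039. Interferon response genes, 7 of 13 tested, lay at 4.0, 3.59 and 0.47, against -0.058 to 0.41, with 7 of 7 above wt in both replicates 1 and 2. Macrophage markers, 13 of 14 tested, lay at 1.30, 0.86 and -0.15, against -0.24 to 0.16, with 13 and 12 of them above wt in replicates 1 and 2. The low Xrcc6 values and the high values of these last lists were in the same 2 embryos. The filter counts all arrays, so a gene low in wt can enter these 2 lists through arrays in which it is high. Only 4 of the 7 interferon genes and 9 of the 13 macrophage markers had a wt mean above the array medians. Visceral endoderm and liver markers, 10 of 11 tested, lay at 1.61, 1.33 and 0.32, against -0.14 to 1.23. Primitive erythroid markers, 11 of 12 tested, lay at 0.60, 0.30 and -0.43, against -0.45 to 0.54, with 10 of 11 above wt in both replicates 1 and 2. Differentiating neuron markers lay at 0.096, 0.56 and -0.062, against -0.45 to 0.11, with 5 and 12 of 12 above wt in replicates 1 and 2. In double mutants against acd 12 of 12 neuron markers were higher, with a median of 0.37. With limma 0 were called and 6 had an unadjusted p under 0.05, where 12.6% of all genes did. The same 12 markers were all lower in acd against wt, with a median of -0.22. In double mutants against wt 9 of 12 were higher, with a median of 0.20. There 2 had an unadjusted p under 0.05, where 11.1% of all genes did.

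Beyond the members, genes of the same processes were taken from lists. Among core end-joining factors, 8 of 10 tested, and 53BP1 and RIF1 pathway genes, 15 of 17 tested, 0 genes were called in any of the 6 comparisons with limma. At most 2 of a list had an unadjusted p under 0.05. For the core factors this was in double mutants against acd, where 12.6% of all genes did. For the 53BP1 and RIF1 pathway it was in double mutants against wt, where 11.1% did. The medians lay between -0.083 and -0.0078 for the first list and between -0.024 and 0.028 for the second. Their list means in double mutant replicate 1 were -0.028 and -0.084, beside -0.48 for the members. In replicate 2 they were -0.16 and -0.028, beside -0.10 for the members. The acd, p53 and wt arrays spanned -0.090 to 0.085 for the first list and -0.031 to 0.033 for the second. Aplf, a Ku-binding scaffold, measured 6.55, 6.69 and 6.95 in double mutants and 7.14, 6.94 and 6.95 in acd (-0.28 ± 0.10 SE, limma adjusted p = 0.371). Tdp1, which clears blocked 3′ ends, differed by -0.23 between double mutants and acd, and Poll, a gap-filling polymerase, by -0.18 between double mutants and wt.

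Paxip1, the 53BP1 effector PTIP, had the smallest p of its list. It measured 8.85, 9.10 and 9.24 in double mutants against 9.42, 9.39 and 9.35 in wt, without overlap (-0.32 ± 0.092 SE, limma adjusted p = 0.447). Double mutant and wt arrays did not overlap for 13.2% of all genes. Rnf8, a ubiquitin ligase that prepares chromatin for 53BP1, differed by -0.16 ± 0.065 in the same comparison, and Dynll1, a 53BP1-binding light chain, by 0.13 ± 0.064 (adjusted p = 0.447 and 0.466).

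Genes of alternative end joining and end resection, 14 of 15 tested, were lower in double mutants for 13 of 14 genes against p53, acd and wt alike, with medians of -0.19, -0.18 and -0.20. With limma 0 were called, and 4, 5 and 3 of 14 had an unadjusted p under 0.05, where 10.7%, 12.6% and 11.1% of all genes did. Of all genes, 52.0%, 52.8% and 53.2% were lower in these comparisons. In acd against wt their median was -0.031, with 6 higher and 8 lower. Blm, the Bloom helicase, measured 8.61, 9.15 and 9.39 in double mutants and 9.39, 9.38 and 9.43 in p53 (-0.35 ± 0.15 SE, limma adjusted p = 0.463). Nbn, a subunit of the complex that starts resection, differed by -0.24 ± 0.095 in the same comparison. Lig1, the replicative ligase that also serves alternative joining, differed by -0.21 ± 0.077 between double mutants and wt. The list mean lay at -0.39, -0.20 and 0.0058 in double mutant replicates 1, 2 and 3.

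Homologous recombination genes, the route that competes with end joining, had 13 of 16 tested and 0 called with limma in any comparison. At most 2 had an unadjusted p under 0.05. This was so in double mutants against p53 and against acd, where 10.7% and 12.6% of all genes did. Their medians were 0.039 in acd against wt, and -0.18, -0.14 and -0.12 in double mutants against p53, acd and wt. Xrcc3 measured -0.24 ± 0.085 (SE) in double mutants against p53, Palb2, the BRCA2 partner, -0.29 ± 0.11 against acd and Rpa1, which coats single strands, -0.20 ± 0.085 against wt. Of 7 shelterin genes Acd alone was called, in acd against wt (-0.73 ± 0.082 SE, limma adjusted p = 0.0113) and in double mutants against wt (-0.63 ± 0.082, adjusted p = 0.0492). Terf1, which binds double-stranded telomere DNA, differed by 0.20 ± 0.096 in acd against wt, and Terf2ip, the RAP1 gene, by -0.20 ± 0.083 in double mutants against acd.

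**Figure D5:**
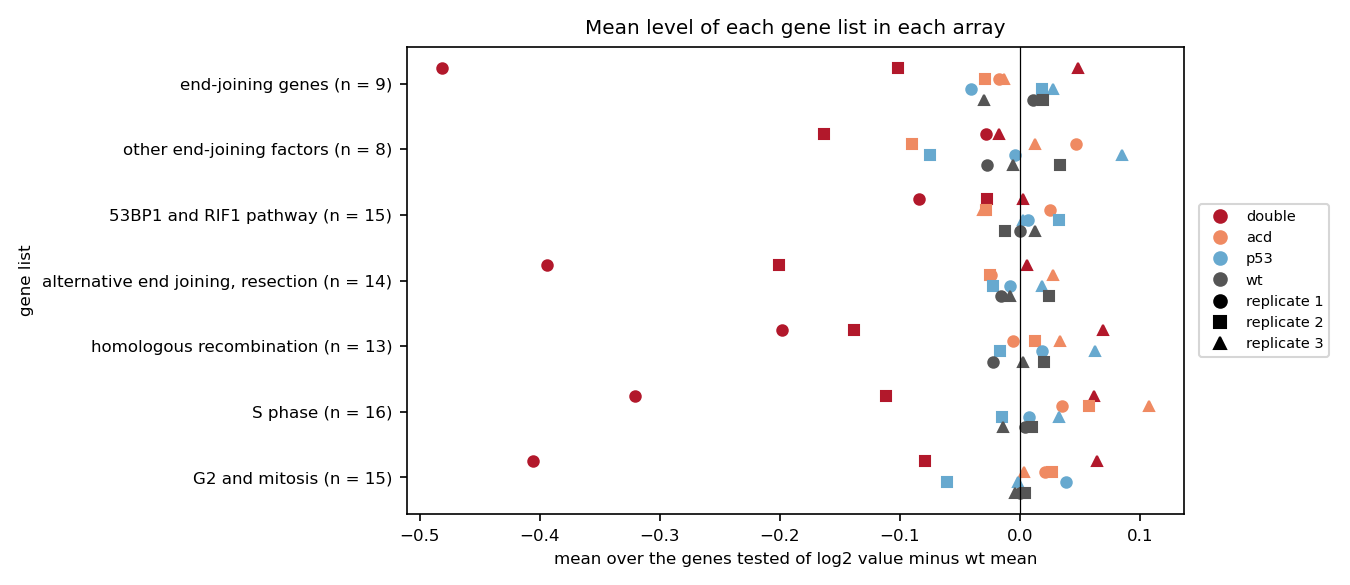
Mean over the tested genes of each list of the log2 value minus the wt mean (horizontal axis), 1 point per array, coloured by genotype and shaped by replicate. Double mutant replicate 1 lies at -0.48 for the end-joining genes, -0.39 for alternative end joining and resection and -0.41 for G2 and mitosis. It lies at -0.028 for the other end-joining factors. Replicate 2 lies at -0.16 for those factors and at -0.10 for the end-joining genes.

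Likeness of pattern was measured as the root mean square difference between centred log2 values over the 12 arrays. The non-members closest to the mean of the 9 members, whose own SD over arrays was 0.14, were Tonsl, Gga2, Pcbp4, Ubqln4 and Incenp, at 0.023 to 0.030. Closest to Rif1 were Larp4, Cdc14b and Strn, at 0.040 to 0.046, and closest to Parp1 were E2f7, Sclt1 and Samhd1, at 0.036 to 0.042. The members' mean was farthest from wt in double mutant replicate 1, at -0.48 on the log2 scale.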

How the data were processed

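RNA of whole embryos was labelled from 250 ng of total RNA and hybridised to 3′ expression arrays, per the labels' protocols. The authors deposited log2 expression values made with justRMA (background correction, quantile normalization and summary of probes), and selected genes with BRB-Array tools 4.4.0, per the series' design text. RMA hides a change of total RNA, and no signal over background was given. Precision is limited by the number of arrays.

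Of 45101 probe sets, 64 were controls; the platform annotation gave 1 symbol for 34945, several for 932 and did not list 9211. Symbols were checked through gene identifiers against RefSeq GRCm38.p6, which changed 0, and promoter sequences are RefSeq's; entries for 8 of the 10 genes matched. Genes entered the tests where at least 3 arrays placed the chosen probe set over the 40th percentile. limma 3.58.1 in R 4.3.3 fitted the 4 genotype means to the 12 arrays, leaving 8 residual degrees of freedom. Tests were two-sided, and p-values were adjusted per comparison by Benjamini-Hochberg across 13500 genes, called at 0.05. The acd against wt step was tested on simulated data whose differences were larger than any of the members' own. That test does not show whether differences of the members' size would be found. Intervals are 95% intervals from limma. P-values measure the spread between these embryos.

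The members and lists were chosen with earlier results of these data known, so lists have counts and medians and no test. Named are all members with every probe set, Acd, up to 3 genes with the smallest p from each pathway list, the 5 genes of most like pattern to the members' mean and 3 each for Rif1 and Parp1; the rule also asked for Polq, left out because its probe set is not shown to be above background. The labels do not say whether the replicate numbers pair the embryos, and the main fit does not pair them. Alternatives were a replicate block, 2 filters, 2 probe set rules, 2 normalizations, an intensity trend, array weights, fewer arrays and a sex term, and, added later, the members other than Polq and each probe set on its own.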

Additional observations from a re-analysis of the deposited data

How the results depend on the processing

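No member was called in acd against wt or p53 against wt under any alternative. Calls arose for Xrcc6 alone: without double mutant replicate 3, 1 member was called in each double mutant comparison and in the interaction, against 0 with all arrays, and array weights gave 1 against acd and 1 against wt. Leaving out 1 array at a time, members called ran from 0 to 1 in these 4 comparisons, and the members' median from -0.33 to 0.0088 against p53 (without double mutant replicates 3 and 1), from -0.21 to 0.0066 against acd, from -0.35 to 0.012 against wt, and from -0.20 to 0.0094 in the interaction; it ran from -0.035 to 0.0031 in acd against wt and from -0.024 to 0.037 in p53 against wt. Without double mutant replicates 1 and 2 the medians of double mutants against p53, acd and wt and of the interaction were 0.017, 0.051, 0.039 and 0.070, values of 1 embryo. With sex as a term they were -0.36, -0.30, -0.21 and -0.53, and 0.19 in p53 against wt. With array weights the median against wt was -0.076. The cause of these shifts was not tested. Genes called in all ran over leave-one-out fits from 1 to 1756, 0 to 1876, 1 to 1646 and 0 to 439 in these 4 comparisons, from 1 to 3 in acd against wt and from 0 to 1 in p53 against wt, and reached 122, 1777 and 1808 with array weights against p53, acd and wt; leaving out double mutant replicates 1 and 2 gave 28, 31, 26 and 25. With the replicate block the medians were those without it (-0.012 in acd against wt, -0.19 in double mutants against p53) and 0 members were called. Correlations of same-numbered arrays' deviations ran from -0.23 to 0.39, and those of other arrays of different genotypes from -0.39 to 0.28. Of 12 arrays 5 correlated best with their own number. With 3 arrays per genotype this cannot settle whether the numbers pair the embryos. Fitting each probe set on its own, added after the values were seen, called 0 members. Without Polq, also added then, the members' medians in double mutants against p53, acd and wt and in the interaction were -0.22, -0.15, -0.23 and -0.16. Signal over background was not given, so it cannot be said that Polq was measured.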
